A study of Drosophila melanogaster with 3 samples.

Results

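LC4 neurons, a type of lobula columnar neuron of the Drosophila melanogaster visual system, were compared between 72 and 48 h after puparium formation (APF). The members were all cells that the deposited cell annotation calls LC4, 604 cells from 4 crosses at 72 h APF and 385 cells from 6 crosses at 48 h APF, which is 989 of the 6003 annotated cells of the series (48, 72 and 96 h APF together). GFP-positive cells were sorted from dissociated brains of staged pupae and profiled by 10x Genomics 3′ single-cell RNA sequencing. Every cross joined an LC4 split-GAL4 driver and a UAS-driven nuclear GFP, carried by all animals, to the third chromosome of 1 inbred DGRP strain (Drosophila Genetic Reference Panel), so that the animals were heterozygous for that chromosome. The crosses at 72 h APF carried strains 399, 535, 799 and 805, and those at 48 h APF carried strains 399, 535, 555, 730, 799 and 805. Each cross pooled several animals of mixed sex, and the cross is the replicate in every test. LPLC2 and LPLC1, other looming-sensitive types sorted and loaded together with LC4, gave 2436 and 1336 cells at these stages. Their crosses used split-GAL4 drivers of their own type. They carried strains 320, 399, 535, 730, 799 and 805 at 72 h APF and the same strains as LC4 at 48 h APF. Strains 320 and 730 at 72 h APF are thus in the other types and not in LC4, which enters every comparison between types. All cells of a stage were loaded on 1 lane and sequenced as 1 library, with other read lengths at 48 than at 72 h APF, so that stage and library cannot be told apart.

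LC4 neurons receive input on dendrites in the lobula and send axons to a single glomerulus of the central brain, where they drive descending neurons of the escape circuit, the giant fibre among them. In the pupal visual system, axons and dendrites grow and choose partners first, synapses are assembled next, and the ion channels and release machinery of mature neurons are filled in towards eclosion. Pulses of the steroid hormone ecdysone and the nuclear receptors it induces time these steps. Immunoglobulin-superfamily pairs such as DIP and Dpr or Beat and Side proteins are known for matching synaptic partners in this tissue.

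UMIs (unique molecular identifiers, 1 per captured transcript) of a gene were summed over the LC4 cells of each cross, which gave from 1958415 to 7041162 UMIs for a cross of 72 h APF, against from 351647 to 2685838 UMIs for one of 48 h APF. Levels are given as UMIs per 10000 UMIs of the sum (TP10K), at 72 h APF in the order of strains 399, 535, 799 and 805. The LC4 cells of a cross numbered 66 to 253 at the later stage and 12 to 121 at the earlier one, with means of 151 ± 77.3 and 64.2 ± 44.4 cells (exact two-sided permutation p = 0.0476). Leaving out any of 9 of the 10 crosses, 1 at a time, gave a p between 0.0556 and 0.131. The median depth of a cell was 30018.5 ± 998 UMIs at 72 h APF and 26390.8 ± 3971 at 48 h APF (SD over 4 and 6 crosses, exact two-sided permutation p = 0.105, with 0.00476 the smallest p that these crosses allow). The median mitochondrial share was lower at 72 h APF, with 2.15 ± 0.0653% against 2.53 ± 0.151% of UMIs (exact permutation p = 0.00952). Cells with a UMI of the male-specific lncRNA:roX1 made up 47% to 72.4% of a cross at 72 h APF, against 21.4% to 70.2% of a cross at 48 h APF (exact permutation p = 0.4), and with this share as a covariate 4087 genes were called, against the 4026 given below. No cell barcode was shared by the LC4 cells of the 2 lanes.

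The 4 genes listed as markers of LC4 (kn, lov, Lim3 and br) summed to between 32.5 and 33.8 TP10K at 72 h APF and between 42.0 and 54.2 TP10K at 48 h APF, and the 4 markers of LPLC2 and LPLC1 to at most 0.145 and 0.965 TP10K. Most of the LC4 sum was br, with 42761 UMIs at 72 h APF and 28439 at 48 h APF, against 8291 and 11020 for kn. Levels of br, lov and Lim3 in LPLC2 and LPLC1 are not given here. Glial markers (10 genes) summed to between 0.423 and 0.660 TP10K at 72 h APF and between 0.168 and 0.330 TP10K at 48 h APF, with repo, the glial transcription factor, at 2 UMIs at 72 h APF and 0 UMIs at 48 h APF in all. The astrocyte gene alrm had 79 UMIs at 72 h APF and 0 UMIs at 48 h APF, the glutamine synthetase gene Gs2 had 126 and 2 UMIs in the same order, the glutamate transporter gene Eaat1 had 86 and 2 UMIs, and the GABA transporter gene Gat had 145 and 10 UMIs. Other members did not rise in this way: moody had 3 and 11 UMIs, Tret1-1 5 and 5, wrapper 2 and 1, and Indy 0 and 1. These UMIs are not scaled to the UMIs of a stage, of which LC4 had more at 72 h APF. Only nrv2 and Gat of this list were abundant enough to test, and both were higher at 72 h APF (0.321 against 0.203 TP10K and 0.0917 against 0.0114 TP10K). Photoreceptor markers (11 genes) and muscle markers (6 genes) stayed at or under 0.13 and 0.0567 TP10K in every cross. Of the 9 haemocyte and fat body markers, Pxn, which encodes the matrix protein peroxidasin, made up most of the sum and was lower at 72 h APF (0.415 against 1.57 TP10K), while Hml and NimC1 had 0 UMIs in all crosses. The part of such cells, or of free RNA, in the results was not tested.

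Of 6118 genes abundant enough to be tested, 4026 (65.8%) differed between the stages at a Benjamini-Hochberg adjusted p under 0.05 by edgeR's quasi-likelihood test over the crosses, which is the meaning of "called" here. Of these, 1969 (32.2%) were higher and 2057 (33.6%) lower at 72 h APF. Differences of at least 2-fold were called for 733 genes higher (12%) and 920 lower (15%). The values of the 4 crosses at 72 h APF lay wholly above or wholly below those of the 6 crosses at 48 h APF for 2762 genes (45.1%). Because most genes were called, counts over gene lists are read against these percentages. The median log2 fold change (72 over 48 h APF) over all genes tested was -0.003.

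The largest rises in LC4 took in a nuclear receptor, enzymes of sugar metabolism, surface or secreted proteins and several genes known only by annotation symbols. CG2016 (3R:4956999-4961351 of dm6) had 20.3, 21.5, 16.7 and 19.0 TP10K at 72 h APF, against a lowest, median and highest value of 0.0243, 0.111 and 0.739 TP10K at 48 h APF. It stood in every cross at 72 h APF far above every cross at 48 h APF, and stages that do not overlap were required of all genes named as the largest rises and falls. On the log2 scale the fold change was 7.40 ± 0.37 with its SE (adjusted p = 1.11e-10). Next came twit (2L:20852578-20857113), a Ly6-family membrane protein known as a target of the BMP receptor Wit in motor neurons. It had 4.12, 4.83, 4.09 and 4.03 TP10K at 72 h APF, against a lowest, median and highest value of 0, 0.0190 and 0.153 TP10K at 48 h APF, so that it was close to 0 in every cross at 48 h APF, and the log2 fold change was 6.36 ± 0.29 (adjusted p = 4.27e-11). The gene ftz-f1 (3L:18750607-18801309) encodes a nuclear receptor that is induced when ecdysone declines. It had 6.59, 6.35, 6.66 and 6.27 TP10K at 72 h APF, against a lowest, median and highest value of 0.106, 0.595 and 1.27 TP10K at 48 h APF, and its log2 fold change was 3.62 ± 0.41 (adjusted p = 1.06e-06). CG13506, an immunoglobulin-domain gene, averaged 3.65 ± 0.505 TP10K at 72 h APF and 0.0815 ± 0.0350 TP10K at 48 h APF (SD over 4 and 6 crosses, as below). Tpi, the triosephosphate isomerase of glycolysis, averaged 2.24 ± 0.351 TP10K at 72 h APF and 0.269 ± 0.125 TP10K at 48 h APF, and Gpdh1, the cytosolic glycerol-3-phosphate dehydrogenase, 1.06 ± 0.0919 TP10K at 72 h APF and 0.0856 ± 0.0245 TP10K at 48 h APF. The remaining genes among the 15 largest rises of genes above 1 TP10K were CG13054, CG8177, CG16758, Muc14A, CG15772, spab, CG10866, CG8360 and CG13954, with log2 fold changes between 3.25 and 6.01.

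The largest falls took in adhesion molecules, actins and transcription factors. Fas2 (X:4132887-4206093), the fly counterpart of the neural cell adhesion molecule NCAM, had 0.235, 0.199, 0.336 and 0.220 TP10K at 72 h APF, against a lowest, median and highest value of 7.28, 8.57 and 11.5 TP10K at 48 h APF. All 4 crosses at 72 h APF lay under 0.34 TP10K, and the log2 fold change was -5.13 ± 0.18 (adjusted p = 2.95e-12). DIP-beta (X:21422115-21457738), an immunoglobulin receptor for Dpr proteins, had 0.0817, 0.0433, 0.0612 and 0.0497 TP10K at 72 h APF, against a lowest, median and highest value of 2.54, 3.12 and 3.77 TP10K at 48 h APF. It was thus near 0 in every cross at 72 h APF, with a log2 fold change of -5.79 ± 0.19 (adjusted p = 1.52e-12). The gene fax (3L:16402796-16411828), which acts with the Abl kinase in axon growth, had 1.62, 1.68, 2.19 and 1.99 TP10K at 72 h APF, against a lowest, median and highest value of 35.2, 45.3 and 53.2 TP10K at 48 h APF, a log2 fold change of -4.51 ± 0.14 (adjusted p = 1.44e-12). Both cytoplasmic actins fell. Act5C (X:5900861-5905399) had 1.02, 1.51, 1.42 and 1.39 TP10K at 72 h APF, against a lowest, median and highest value of 18.9, 21.9 and 26.8 TP10K at 48 h APF (log2 fold change -4.02 ± 0.13), and Act42A averaged 0.582 ± 0.0857 TP10K at 72 h APF and 7.12 ± 1.24 TP10K at 48 h APF. Their coding sequences are near-identical, and how reads that match both were counted was not checked. Blimp-1, a zinc-finger repressor of ftz-f1 in prepupae, had 0.102, 0.104, 0.0735 and 0.0554 TP10K at 72 h APF, against a lowest, median and highest value of 0.640, 1.48 and 2.80 TP10K at 48 h APF and a log2 fold change of -4.41 ± 0.43. The Krüppel-like factor luna averaged 0.134 ± 0.0530 TP10K at 72 h APF and 2.90 ± 1.03 TP10K at 48 h APF. CG12643, CG43658, HINT1, SKIP, GILT1, fabp, CG30158 and Df31 completed the 15 largest falls of genes above 1 TP10K, with log2 fold changes between -6.13 and -3.40.

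Within 48 h APF some of these genes divided the crosses by collection group. The early crosses (strains 399, 535 and 555) came from animals that were collected first and were on average slightly older at dissection than those of the late crosses (strains 730, 799 and 805). For ftz-f1 the early crosses at 48 h APF had 1.27, 1.15 and 0.825 TP10K, and the late ones 0.204, 0.365 and 0.106 TP10K. For Blimp-1 the early crosses had 0.736, 0.64 and 0.768 TP10K, and the late ones 2.79, 2.19 and 2.43 TP10K. These groups did not overlap, while collection group and strain cannot be told apart. Both genes were chosen for this split after their values were seen. The share of all genes whose early and late crosses do not overlap was not counted, so that the split is no result about these genes in particular. With collection group as a covariate 4059 genes were called. The early crosses alone (2 against 3) gave 2882 called genes, and the late crosses alone (2 against 3) gave 3944.

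**Figure D1:**
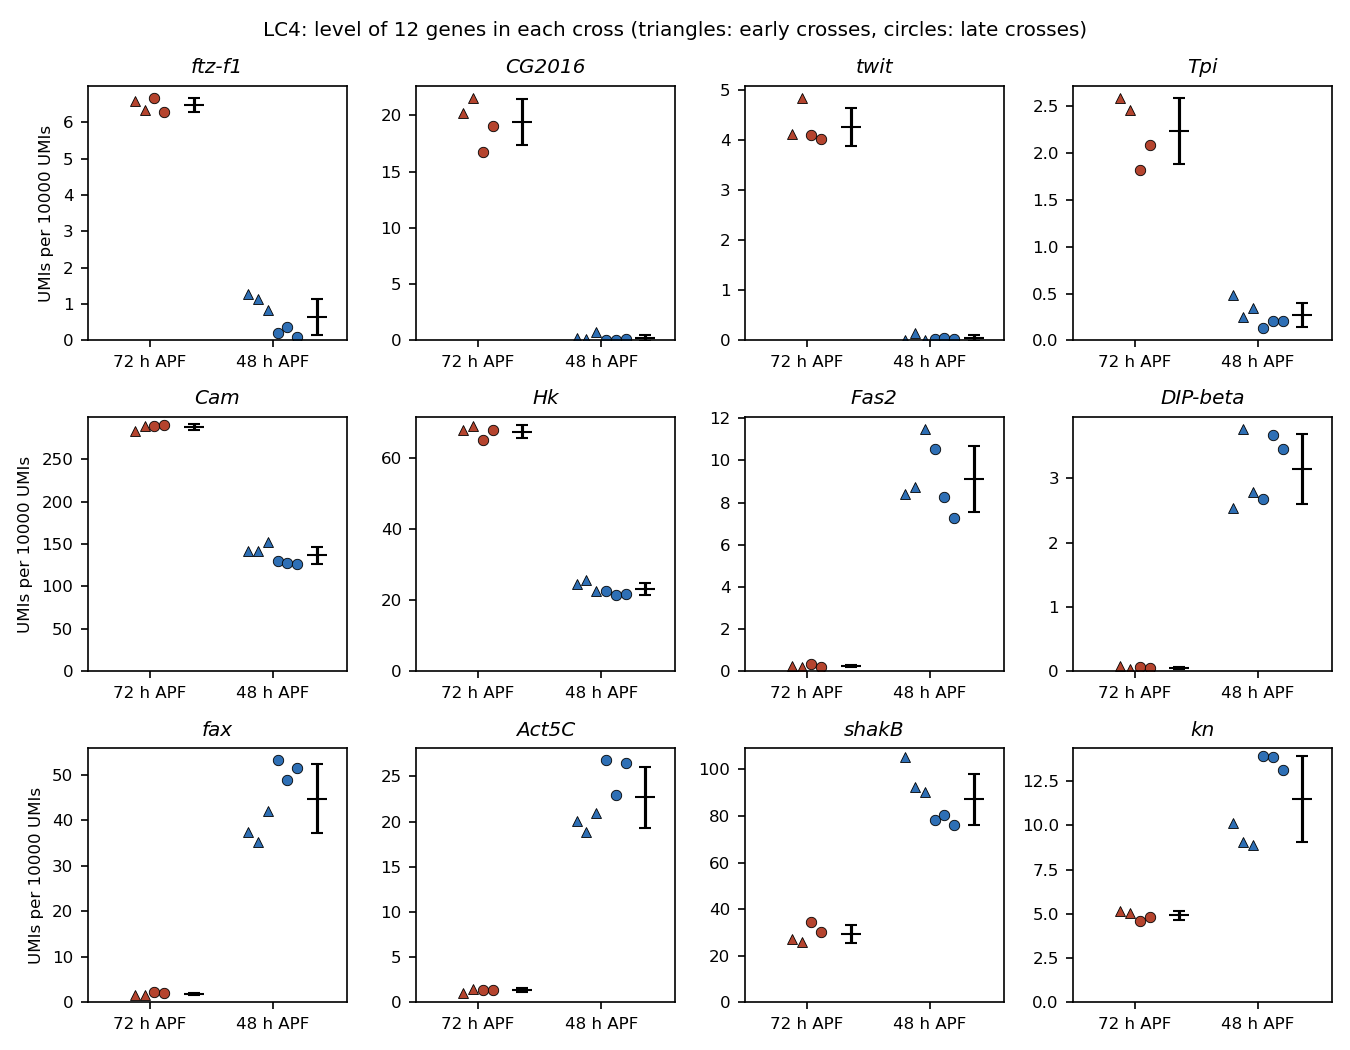
Level of 12 genes in LC4, in UMIs per 10000 UMIs of a cross on linear axes that start at 0, for each of the 4 crosses at 72 h APF (red, left) and the 6 crosses at 48 h APF (blue, right). Triangles mark early and circles late crosses, and the black marks give the mean and SD. The stages overlap for none of the 12 genes, but most of them were named by a rule that required this. Values of ftz-f1 lie between 6.27 and 6.66 at 72 h APF, against 0.106 to 1.27 at 48 h APF, and those of Fas2 between 0.199 and 0.336, against 7.28 to 11.5.

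Genes that define the identity of LC4 stayed on at both stages, most of them at a lower level at 72 h APF. Of the 10 tested members of the list of annotated identity transcription factors, 8 were lower, 0 were higher and 2 were not called, with a median log2 fold change of -0.86. The EBF-family factor kn (Collier) had 5.17, 5.03, 4.62 and 4.85 TP10K at 72 h APF, against a lowest, median and highest value of 8.87, 11.6 and 13.9 TP10K at 48 h APF, a log2 fold change of -1.17 ± 0.12 (adjusted p = 4.23e-07). The BTB-domain gene lov fell alongside, with 1.13 ± 0.0515 TP10K at 72 h APF and 2.51 ± 0.666 TP10K at 48 h APF. The POU factor acj6 averaged 4.58 ± 0.250 TP10K at 72 h APF and 8 ± 0.639 TP10K at 48 h APF and the forkhead factor fkh 1.70 ± 0.0725 TP10K at 72 h APF and 3.38 ± 1 TP10K at 48 h APF. The ecdysone-induced zinc-finger gene br fell by the least of the called members of this list above 1 TP10K (25.2 ± 0.446 TP10K at 72 h APF and 32.8 ± 2.55 TP10K at 48 h APF, log2 fold change -0.32 ± 0.07). Lim3, a LIM-homeodomain factor, was not called, with 1.78 ± 0.0936 TP10K at 72 h APF and 1.71 ± 0.226 TP10K at 48 h APF and a log2 fold change of 0.09 ± 0.09. The same holds for tup, another LIM-homeodomain factor, with 0.451 ± 0.0767 TP10K at 72 h APF and 0.507 ± 0.0715 TP10K at 48 h APF. The remaining 3 called members, Lim1, salr and Sox102F, mark other types and reached at most 0.305 TP10K in any LC4 cross, that of strain 399 at 48 h APF, which held 14 cells. The call of Lim1 was lost with the strain as a block (log2 fold change -1.28, adjusted p = 0.057). That of Sox102F was lost without strain 535 or 805 at 72 h APF (adjusted p = 0.0667 and 0.0694). The homeodomain factor ct, which shapes dendrites in other neurons, averaged 7.35 ± 0.467 TP10K at 72 h APF and 21.7 ± 1.92 TP10K at 48 h APF.

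Surface molecules that act in partner choice changed in both directions, and single members of each family are given. Over all genes tested, 32.2% were higher and 33.6% lower. The counts of dpr and beat genes lay near these shares and are no trait of these families. The DIP and side families held 8 tested genes each, which is few to set against these shares. Of the 8 DIP genes tested, 4 were lower and 0 higher at 72 h APF. In the fits without strain 535 or 805 at 72 h APF 1 DIP gene was higher. The genes tested can differ in those fits, so that it need not be 1 of these 8. Besides DIP-beta, DIP-kappa had 0.873, 0.742, 1.16 and 0.981 TP10K at 72 h APF, against a lowest, median and highest value of 3.88, 5.01 and 6.76 TP10K at 48 h APF, a log2 fold change of -2.42 ± 0.17. Of 21 dpr genes, whose products bind DIPs, 9 were higher and 7 lower. The largest rise was that of dpr5 (0.460 against 0.0301 TP10K, log2 fold change 3.91). It was followed by dpr13, a gene chosen here after its values were seen, which had 8.78, 7.83, 7.74 and 7.78 TP10K at 72 h APF, against a lowest, median and highest value of 1.17, 1.62 and 2.41 TP10K at 48 h APF and a log2 fold change of 2.39 ± 0.16. The largest falls were those of dpr16 (0.0455 against 0.704 TP10K) and dpr17 (0.0706 against 0.437 TP10K). Among the falls, dpr1 averaged 12.7 ± 0.946 TP10K at 72 h APF and 22.1 ± 2.86 TP10K at 48 h APF, with a log2 fold change of -0.75.

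Of 12 beat genes, 4 were higher and 5 lower. The gene beat-IIIc averaged 32.4 ± 1.59 TP10K at 72 h APF and 21.7 ± 2.40 TP10K at 48 h APF and rose, with a log2 fold change of 0.64 ± 0.09, while beat-IIIb averaged 2.32 ± 0.149 TP10K at 72 h APF and 6.92 ± 0.392 TP10K at 48 h APF and fell, with -1.52 ± 0.08. Of 8 genes of the side family, whose products bind Beat proteins, 2 were higher and 4 lower. The founding member side, an attractant for motor axons in the embryo, had 10.7, 9.18, 13.8 and 13.3 TP10K at 72 h APF, against a lowest, median and highest value of 24.1, 30.1 and 35.1 TP10K at 48 h APF. By contrast side-V had 1.75, 1.70, 1.92 and 1.59 TP10K at 72 h APF, against a lowest, median and highest value of 0.165, 0.328 and 0.914 TP10K at 48 h APF, and side-VI averaged 2.51 ± 0.281 TP10K at 72 h APF and 0.791 ± 0.116 TP10K at 48 h APF. The log2 fold changes were -1.27 for side, 2.57 for side-V and 1.71 for side-VI, and no cross of 1 stage overlapped the other stage for any of the 3 genes.

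Of 32 other immunoglobulin adhesion genes, 9 were higher and 18 lower, with a median log2 fold change of -0.33. This list shares DIP-kappa and side-III with those above. Besides Fas2, Lac (Lachesin), a protein of cell junctions, was among the falls (0.0253 against 0.303 TP10K). The gene tutl (turtle), which shapes dendrite and axon branching, rose, with 69.9 ± 2.20 TP10K at 72 h APF and 36.4 ± 4.04 TP10K at 48 h APF. Among 8 cadherin genes, 3 were higher and 3 lower, with N-cadherin (CadN) at 5.15 ± 0.444 TP10K at 72 h APF and 8.85 ± 0.583 TP10K at 48 h APF and Calsyntenin (Cals) at 4.38 ± 0.217 TP10K at 72 h APF and 2.93 ± 0.463 TP10K at 48 h APF. Of 15 leucine-rich-repeat surface genes, 3 were higher and 8 lower. The homophilic adhesion gene Con had a log2 fold change of 0.41 ± 0.15 that was no longer called without any 1 of 5 crosses (adjusted p between 0.0508 and 0.0716 without strain 730, 799 or 805 at 48 h APF or strain 399 or 799 at 72 h APF). The gene kek4 averaged 0.240 ± 0.0277 TP10K at 72 h APF and 0.0209 ± 0.0212 TP10K at 48 h APF and rose. The gene trn, which encodes the cell-surface protein Tartan, averaged 0.132 ± 0.0616 TP10K at 72 h APF and 0.955 ± 0.368 TP10K at 48 h APF. Among teneurins, neurexins and neuroligins, 2 of 7 tested genes were higher and 4 lower, for example Nlg4 (3.17 against 1.89 TP10K) and Ten-m (0.593 against 1.14 TP10K).

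Axon guidance genes were mostly lower at 72 h APF. Of 23 tested, 15 were lower and 2 higher, with a median log2 fold change of -0.47. The transmembrane semaphorin Sema1a had 8.84, 8.54, 9.81 and 9.39 TP10K at 72 h APF, against a lowest, median and highest value of 15.6, 22.6 and 26.3 TP10K at 48 h APF, and the receptor phosphatase Ptp69D averaged 0.0845 ± 0.0185 TP10K at 72 h APF and 0.325 ± 0.0907 TP10K at 48 h APF. NetB, a Netrin that attracts or holds axons, went the other way and had 3.92, 2.60, 3.52 and 3.44 TP10K at 72 h APF, against a lowest, median and highest value of 0.335, 0.667 and 1.29 TP10K at 48 h APF, a log2 fold change of 2.49 ± 0.24 (adjusted p = 1.93e-07). The other higher member was Ptp10D, named here after its values were seen, at 0.154 against 0.0850 TP10K. Of 6 Wnt genes tested, 4 were lower, among them the receptors fz (0.118 against 0.765 TP10K) and fz2 (0.285 against 1.71 TP10K) and the co-receptor arr (0.0966 against 0.356 TP10K). Genes of heparan sulfate and sialic acid were divided, with 7 of 13 higher and 4 lower. SiaT, the sialyltransferase, had 8.54, 8.94, 7.90 and 8.80 TP10K at 72 h APF, against a lowest, median and highest value of 0.917, 1.65 and 2.33 TP10K at 48 h APF, a log2 fold change of 2.54 ± 0.19. Cow, a secreted heparan sulfate proteoglycan that binds Wingless, averaged 25.9 ± 2.89 TP10K at 72 h APF and 9.27 ± 1.12 TP10K at 48 h APF, whereas sfl, the enzyme that starts the sulfation of heparan sulfate, averaged 0.505 ± 0.0528 TP10K at 72 h APF and 1.49 ± 0.194 TP10K at 48 h APF.

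**Figure D2:**
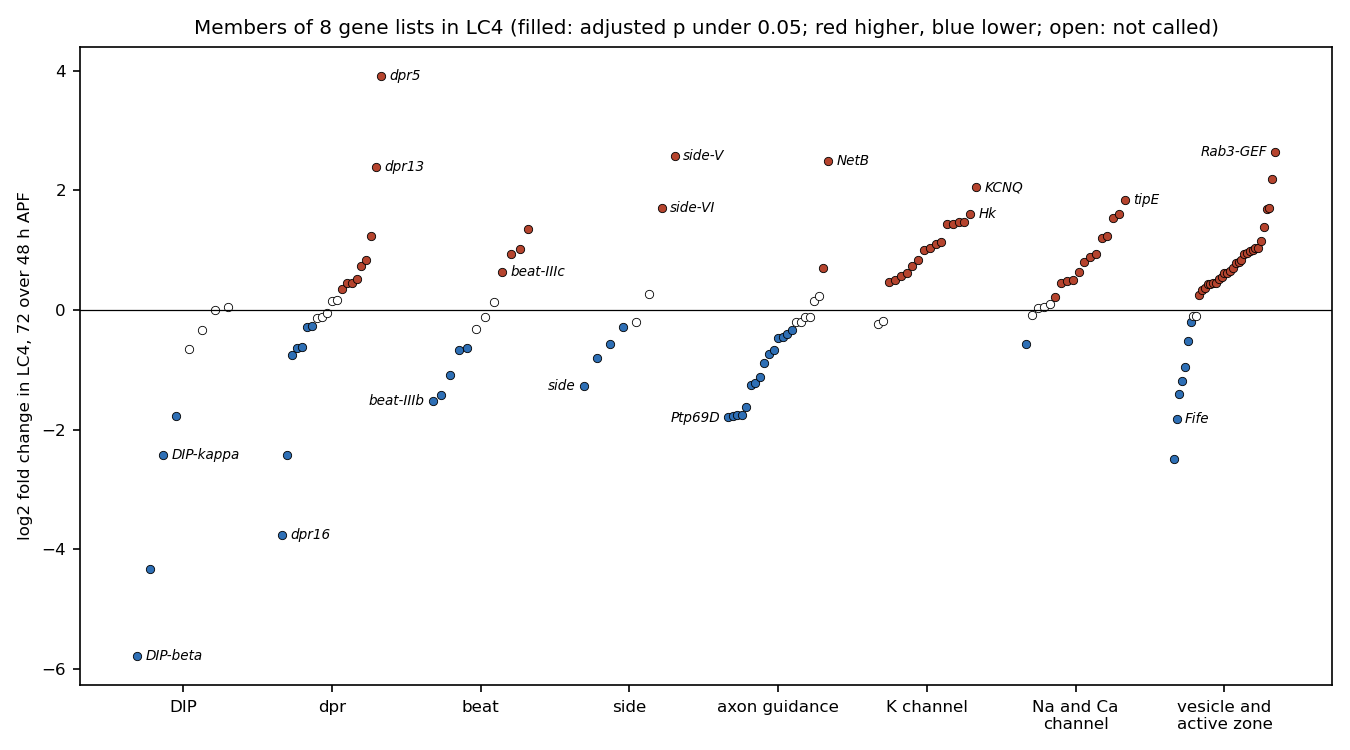
Log2 fold change in LC4 (72 over 48 h APF, vertical axis) of each tested member of 8 gene lists, sorted within a list. Filled points are called at an adjusted p under 0.05, red higher and blue lower, and open points are not called. DIP genes lie at or below 0.05, from DIP-beta at -5.79, while all 16 called potassium channel genes lie above 0.

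Most genes of the growing cytoskeleton fell. Of 30 tested cytoskeleton and axon growth genes, 21 were lower and 4 higher, with a median log2 fold change of -1.05. Besides fax and the actins, the major tubulins were lower, with alphaTub84B at 11.0 ± 0.621 TP10K at 72 h APF and 38.0 ± 3.89 TP10K at 48 h APF and betaTub56D at 9.45 ± 0.732 TP10K at 72 h APF and 31.9 ± 3.10 TP10K at 48 h APF. The microtubule-binding protein futsch was not called (33.3 ± 2.5 TP10K at 72 h APF and 30.5 ± 3.32 TP10K at 48 h APF, log2 fold change 0.18 ± 0.09), but was called higher without strain 399 at 48 h APF (0.22, adjusted p = 0.0263) and under further alternatives. Most neuronal RNA-binding genes fell as well, with 20 of 28 lower and 3 higher. Rbp9, a relative of the neuronal protein Elav, had 3.10, 3.20, 4.23 and 3.65 TP10K at 72 h APF, against a lowest, median and highest value of 17.6, 20.8 and 22.4 TP10K at 48 h APF. The RNA-binding protein Musashi (msi) had 0.368, 0.359, 0.475 and 0.352 TP10K at 72 h APF, against a lowest, median and highest value of 2.59, 3.20 and 3.47 TP10K at 48 h APF, a log2 fold change of -2.92 ± 0.12. Of 33 proteasome subunit genes, 22 were lower and 3 higher, for example Prosbeta3 (0.415 against 1.70 TP10K) and Prosalpha7 (0.921 against 2.36 TP10K). Of 84 cytosolic ribosomal protein genes, 49 were lower and 9 higher, but their median log2 fold change was small, at -0.25. RpLP0 averaged 5.79 ± 0.249 TP10K at 72 h APF and 13.7 ± 1.12 TP10K at 48 h APF and RpL41 15.1 ± 0.551 TP10K at 72 h APF and 33.5 ± 2.41 TP10K at 48 h APF.

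Heat shock and stress genes were lower at 72 h APF in 18 of 20 cases, with a median log2 fold change of -0.84. The small heat shock gene Hsp67Bc had 11.9, 13, 13.2 and 16.5 TP10K at 72 h APF, against a lowest, median and highest value of 47.5, 56.5 and 61.8 TP10K at 48 h APF, and Hsp23 averaged 7.16 ± 2.17 TP10K at 72 h APF and 42.7 ± 5.76 TP10K at 48 h APF. Hsp67Ba averaged 1.43 ± 0.203 TP10K at 72 h APF and 11.7 ± 1.14 TP10K at 48 h APF. The single member that was higher was Hsc70-5, the mitochondrial Hsp70, named after its values were seen, and without strain 799 at 48 h APF 2 members were higher. The Hsp70 copies are near-identical, and how reads that match more than 1 copy were counted was not checked.

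Most ion channel genes rose. Of 18 potassium channel genes tested, 16 were higher and 0 lower at 72 h APF (1 lower without strain 730 at 48 h APF or strain 799 at 72 h APF), with a median log2 fold change of 1.02. Hk, the beta subunit of the Shaker channel, had 67.8, 68.9, 64.9 and 67.8 TP10K at 72 h APF, against a lowest, median and highest value of 21.6, 22.5 and 25.6 TP10K at 48 h APF, a log2 fold change of 1.6 ± 0.07 (adjusted p = 2.04e-11). Sh itself, a fast voltage-gated channel, rose less, with 70.6 ± 2.05 TP10K at 72 h APF and 53.3 ± 7.16 TP10K at 48 h APF and a log2 fold change of 0.46. Shab, a delayed rectifier, averaged 26.5 ± 1.44 TP10K at 72 h APF and 9.91 ± 0.508 TP10K at 48 h APF, and KCNQ, the channel of the M current, 2.58 ± 0.353 TP10K at 72 h APF and 0.691 ± 0.173 TP10K at 48 h APF. The 2 members that were not called were SK and Shawl, named after their values were seen. Of 18 sodium and calcium channel genes, 13 were higher and 1 lower, with a median log2 fold change of 0.57. The lower one was Ca-Ma2d, named after its values were seen. The voltage-gated sodium channel para had 107, 111, 119 and 116 TP10K at 72 h APF, against a lowest, median and highest value of 61.4, 74.5 and 96.2 TP10K at 48 h APF, and its accessory subunit tipE averaged 8.78 ± 0.351 TP10K at 72 h APF and 2.58 ± 0.318 TP10K at 48 h APF. The low-threshold calcium channel Ca-alpha1T averaged 1.05 ± 0.0294 TP10K at 72 h APF and 0.417 ± 0.253 TP10K at 48 h APF and the L-type channel Ca-alpha1D 7.19 ± 0.318 TP10K at 72 h APF and 2.60 ± 0.478 TP10K at 48 h APF.

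Genes of transmitter release rose in most cases. Of 37 tested synaptic vesicle and active zone genes, 28 were higher and 7 lower, with a median log2 fold change of 0.61. Syt1, the calcium sensor of release, had 33.3, 34.5, 33.7 and 34.9 TP10K at 72 h APF, against a lowest, median and highest value of 13.4, 15.9 and 18.7 TP10K at 48 h APF. Rab3-GEF, which activates the vesicle GTPase Rab3, averaged 5.75 ± 0.394 TP10K at 72 h APF and 1 ± 0.181 TP10K at 48 h APF, a log2 fold change of 2.64, and complexin (cpx) 37.4 ± 3.07 TP10K at 72 h APF and 20.2 ± 1.30 TP10K at 48 h APF. The vesicle protein synaptogyrin (Syngr) averaged 0.998 ± 0.0228 TP10K at 72 h APF and 0.254 ± 0.0909 TP10K at 48 h APF. Fife, an active zone scaffold, was among the lower members, with 0.156 ± 0.0468 TP10K at 72 h APF and 0.542 ± 0.120 TP10K at 48 h APF. Genes of the cholinergic phenotype were higher, with ChAT, which makes acetylcholine, at 1.61 ± 0.179 TP10K at 72 h APF and 0.815 ± 0.145 TP10K at 48 h APF. The vesicular transporter VAChT averaged 6.53 ± 0.265 TP10K at 72 h APF and 3.47 ± 0.340 TP10K at 48 h APF, and the esterase Ace 28.7 ± 3.13 TP10K at 72 h APF and 10.4 ± 2.82 TP10K at 48 h APF. The innexin shakB, which forms electrical synapses of the giant fibre system, fell, with 27.2, 25.8, 34.5 and 30 TP10K at 72 h APF, against a lowest, median and highest value of 76.0, 85.3 and 105 TP10K at 48 h APF. Its log2 fold change was -1.51 ± 0.11 (adjusted p = 8.52e-09).

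Receptor genes for fast transmitters changed in both directions, as did all genes tested (32.2% higher and 33.6% lower). The GABA-A receptor Rdl had 260.3, 254, 270.0 and 268 TP10K at 72 h APF, against a lowest, median and highest value of 171, 179 and 196 TP10K at 48 h APF, a log2 fold change of 0.60 ± 0.06. Of 9 nicotinic receptor genes, 4 were higher and 3 lower. The largest rise was that of nAChRalpha6 (8.27 ± 1.6 TP10K at 72 h APF and 2.65 ± 1.33 TP10K at 48 h APF), and nAChRbeta1 averaged 15.6 ± 0.411 TP10K at 72 h APF and 10.0 ± 0.438 TP10K at 48 h APF. nAChRalpha7 averaged 97.1 ± 9.76 TP10K at 72 h APF and 73.4 ± 15.1 TP10K at 48 h APF and was called higher, while nAChRalpha5 averaged 69.6 ± 3.67 TP10K at 72 h APF and 84.5 ± 5.91 TP10K at 48 h APF and was called lower with a small log2 fold change of -0.22 ± 0.07. The call of nAChRalpha5 was lost without strain 399 at 72 h APF (adjusted p = 0.0512) and with no low-count filter (adjusted p = 0.227). Of 9 glutamate receptor genes, 2 were higher and 1 lower, and Nmdar2, a subunit of the NMDA receptor, averaged 1.66 ± 0.139 TP10K at 72 h APF and 0.589 ± 0.130 TP10K at 48 h APF.

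Receptors for neuropeptides were mostly lower at 72 h APF. Of 25 tested neuropeptide receptor genes, 15 were lower and 4 higher, with a median log2 fold change of -1.04. The SIFamide receptor SIFaR was among those that rose, with 4.12 ± 0.207 TP10K at 72 h APF and 2.09 ± 0.639 TP10K at 48 h APF, and so was the diuretic hormone receptor Dh44-R1 (0.485 against 0.0588 TP10K), whereas the allatostatin A receptor AstA-R2 averaged 0.0158 ± 0.0120 TP10K at 72 h APF and 0.233 ± 0.190 TP10K at 48 h APF. DopEcR, a membrane receptor for dopamine and ecdysone, had 23.2, 21.8, 22.9 and 24.0 TP10K at 72 h APF, against a lowest, median and highest value of 2.54, 4.15 and 7.39 TP10K at 48 h APF, a log2 fold change of 2.46 ± 0.24, and was the largest rise among 15 monoamine receptor genes. The tyramine receptor TyrR fell, with 0.0569 ± 0.0114 TP10K at 72 h APF and 0.759 ± 0.186 TP10K at 48 h APF. All 8 tested neuropeptide processing genes were higher, with a median log2 fold change of 1, among them the prohormone convertase amon (1.73 against 0.781 TP10K) and the dense-core vesicle protein IA-2 (8.80 against 2.95 TP10K). By contrast 5 of 8 tested neuropeptide genes were lower and 1, spab (1.84 against 0.153 TP10K), was higher.

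Signalling enzymes of cAMP and calcium were higher in 16 of 28 cases and lower in 5. Calmodulin (Cam), the main calcium sensor of the cell, had 283, 289, 289 and 291 TP10K at 72 h APF, against a lowest, median and highest value of 126, 136 and 152 TP10K at 48 h APF, a log2 fold change of 1.13 ± 0.07 (adjusted p = 6.73e-10). The adenylyl cyclase Ac76E had 1.34, 1.38, 1.28 and 1.32 TP10K at 72 h APF, against a lowest, median and highest value of 0.118, 0.275 and 0.455 TP10K at 48 h APF, a log2 fold change of 2.5 ± 0.17. The regulatory subunit Pka-R2 of protein kinase A averaged 13.1 ± 0.585 TP10K at 72 h APF and 5.54 ± 0.664 TP10K at 48 h APF.

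Hormone-response genes were split between the directions, with 8 of 18 higher and 8 lower, against 32.2% and 33.6% of all genes tested. Besides ftz-f1, the nuclear receptor Hr39 rose, with 1.17 ± 0.0532 TP10K at 72 h APF and 0.405 ± 0.0959 TP10K at 48 h APF, while the nuclear receptor Hr4 fell, with 3, 2.91, 3.19 and 3.31 TP10K at 72 h APF, against a lowest, median and highest value of 7.59, 11.9 and 18.6 TP10K at 48 h APF and a log2 fold change of -1.94 ± 0.22. Of 9 genes of temporal patterning, which tie the identity of a neuron to its birth order in a stem-cell lineage, 5 were lower and 2 higher. Syp and Imp, RNA-binding proteins that oppose each other in neural stem cells, were both lower, Syp at 28.3 ± 2.61 TP10K at 72 h APF and 63.3 ± 7.36 TP10K at 48 h APF and Imp, which was chosen after its values were seen, at 0.637 ± 0.0786 TP10K at 72 h APF and 1.21 ± 0.267 TP10K at 48 h APF. The translational repressor brat averaged 1.71 ± 0.268 TP10K at 72 h APF and 8.93 ± 2.66 TP10K at 48 h APF and the zinc-finger gene mamo 3.08 ± 0.179 TP10K at 72 h APF and 10.6 ± 1.97 TP10K at 48 h APF.

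Energy genes differed from list to list. All 11 tested glycolysis genes were higher at 72 h APF, with a median log2 fold change of 1.46. Phosphofructokinase (Pfk) averaged 0.677 ± 0.0781 TP10K at 72 h APF and 0.0449 ± 0.0259 TP10K at 48 h APF, pyruvate kinase (PyK) 2.44 ± 0.112 TP10K at 72 h APF and 0.375 ± 0.0914 TP10K at 48 h APF and enolase (Eno) 4.59 ± 0.338 TP10K at 72 h APF and 2.03 ± 0.178 TP10K at 48 h APF. All 15 tested subunits of the vacuolar ATPase, the proton pump that fills synaptic vesicles and lysosomes, were higher, with a median log2 fold change of 1.10. Vha55 averaged 2.96 ± 0.210 TP10K at 72 h APF and 1.08 ± 0.198 TP10K at 48 h APF, Vha14-1 4.66 ± 0.294 TP10K at 72 h APF and 1.77 ± 0.172 TP10K at 48 h APF and Vha16-1 13.9 ± 0.478 TP10K at 72 h APF and 9.52 ± 0.333 TP10K at 48 h APF. Of 67 nuclear genes of oxidative phosphorylation, 28 were higher, 6 lower and 33 not called, with a median log2 fold change of only 0.14. Cytochrome c (Cyt-c-p) stood apart from them, with 12.1, 11.2, 9.78 and 10.7 TP10K at 72 h APF, against a lowest, median and highest value of 1.26, 1.75 and 2.73 TP10K at 48 h APF and a log2 fold change of 2.65 ± 0.18. Complex I subunit ND-49 averaged 1.57 ± 0.142 TP10K at 72 h APF and 0.815 ± 0.151 TP10K at 48 h APF, and the ATP synthase subunit ATPsynC, with 21.8 ± 0.690 TP10K at 72 h APF and 24.3 ± 1.18 TP10K at 48 h APF, was not called. Transcripts of the mitochondrial genome were lower in 14 of 15 cases, with a median log2 fold change of -0.90, for example mt:ND1 (1.55 against 4.79 TP10K) and mt:ATPase6 (4.25 against 11.7 TP10K). The large ribosomal RNA mt:lrRNA was the exception, with 179 ± 7.22 TP10K at 72 h APF and 187 ± 19.0 TP10K at 48 h APF.

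**Figure D3:**
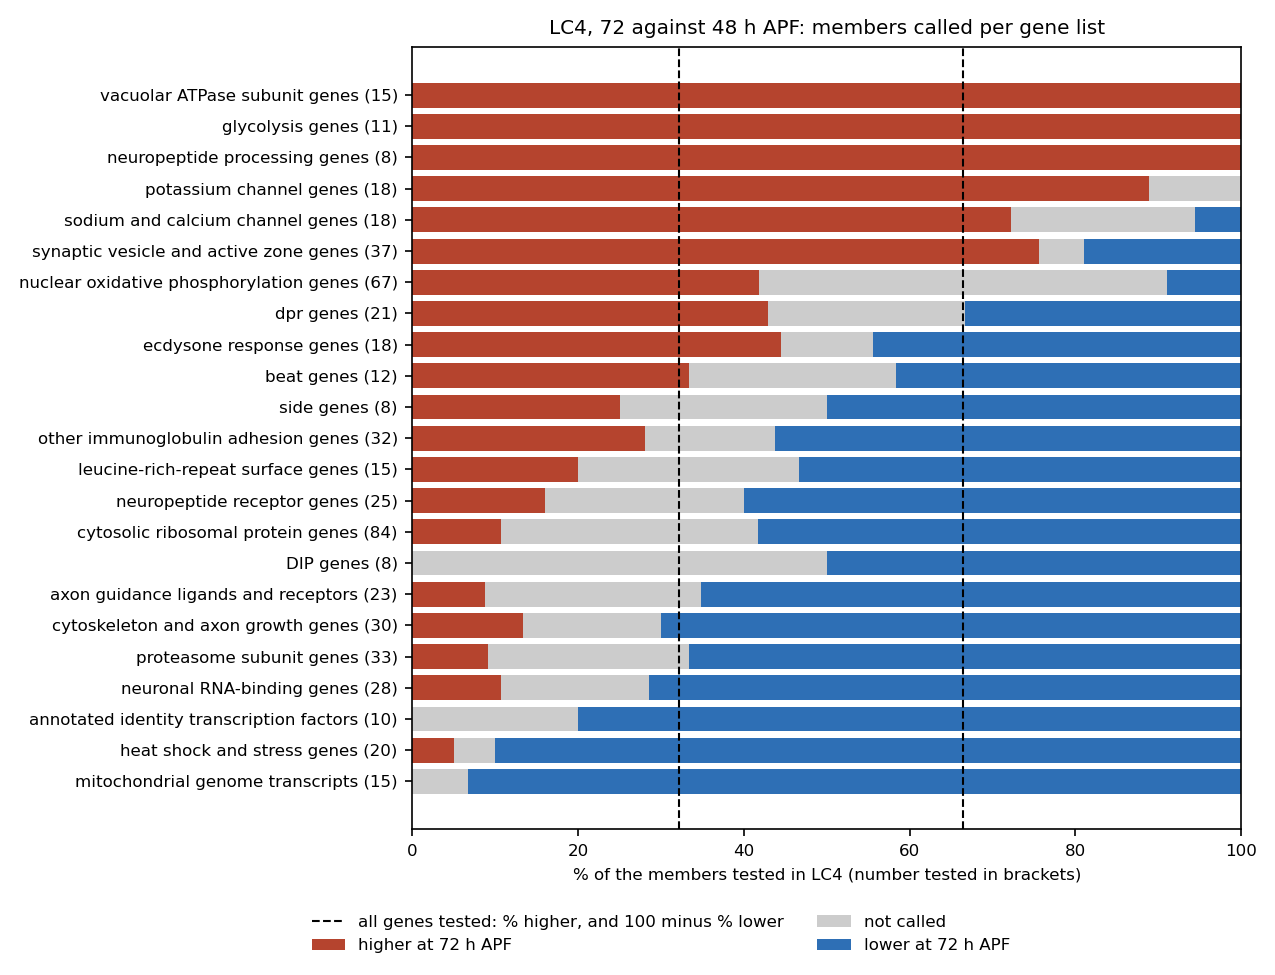
Percentage of the tested members of 23 gene lists that were higher (red), not called (grey) or lower (blue) in LC4 at 72 against 48 h APF, with the number tested in brackets. Dashed lines mark the percentage over all genes tested (32.2% higher, 33.6% lower). At the top stand the vacuolar ATPase (15 of 15 higher) and glycolysis (11 of 11 higher), at the bottom the mitochondrial transcripts (14 of 15 lower).

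Whether LC4 changed by more or by less than LPLC2 and LPLC1, which were pooled on the same 2 lanes, was tested as the log2 fold change of LC4 minus the mean of the log2 fold changes of the other types. Of 7014 genes tested, 1073 (15.3%) changed more upwards, and 1201 (17.1%) more downwards, in LC4 than in the other types. Of the 4026 genes called in LC4, 1607 were called here as well. The sums of LC4 enter this difference too, so that it is no independent check of the change in LC4. Over the 7014 genes, 5138 were called in LPLC2 and 4584 in LPLC1. Of the 6118 genes tested in LC4, 2736 were called in all 3 types in the same direction, a count that was not set against what such high shares give alone. ftz-f1 was one of these, with 7.19 against 0.153 TP10K in LPLC2 and 6.12 against 0.626 TP10K in LPLC1. fax was another, with 5.72 against 75.7 TP10K in LPLC2 and 5.70 against 69.7 TP10K in LPLC1.

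Among genes of at least 1 TP10K in LC4 at 1 stage, the largest downward difference was that of DIP-beta, at -8.51 ± 0.38 on the log2 scale (SE, adjusted p = 5.04e-19). In the other types DIP-beta was higher at 72 h APF, with 0.350 against 0.0518 TP10K in LPLC2 and 1.79 against 0.319 TP10K in LPLC1. Fas2 followed with -5.24 ± 0.23 and had 0.486 against 0.708 TP10K in LPLC2 and 1.91 against 1.22 TP10K in LPLC1, so that the high level at 48 h APF was seen in LC4 among these 3 types. Further genes with large downward differences were CG30158 (-4.18 ± 0.33), SKIP (-3.59 ± 0.19), GILT1 (-3.48 ± 0.21), luna (-3.20 ± 0.23), msi (-2.93 ± 0.12) and DIP-kappa (-2.79 ± 0.27).

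Among the same genes, the largest upward difference was that of twit, at 4.35 ± 1.48 (adjusted p = 0.0220). Its levels in the other types were close to 0, with 0.0231 against 0.0162 TP10K in LPLC2 and 0.0280 against 0.00260 TP10K in LPLC1, all under the 0.0360 TP10K that the LC4 factor kn reached there. Against LPLC1 alone the difference was 2.82 and was not called (adjusted p = 0.388). Ac76E rose in LC4 and fell in the other types, with 0.0608 against 0.155 TP10K in LPLC2 and 0.274 against 0.470 TP10K in LPLC1 and a difference of 3.45 ± 0.31. Kif3C, a kinesin motor subunit, averaged 1.07 ± 0.159 TP10K at 72 h APF and 0.239 ± 0.0930 TP10K at 48 h APF in LC4 and 0.121 against 0.179 TP10K in LPLC2 and 0.354 against 0.657 TP10K in LPLC1 (difference 3.09 ± 0.25). Ccn, a secreted matrix-associated protein, averaged 5.30 ± 0.722 TP10K at 72 h APF and 0.619 ± 0.0886 TP10K at 48 h APF in LC4 and differed by 3.72 ± 0.24. The other genes of this group were Muc14A (3.01 ± 0.37), Cad87A (2.85 ± 0.31), side-V (2.81 ± 0.23) and CG13506 (2.59 ± 0.22). Cad87A, a cadherin, itself had a log2 fold change of -0.55 in LC4, which was called by edgeR but not in DESeq2's Wald test (-0.46, adjusted p = 0.0674), and it fell further in the other types (-3.16 in LPLC2 and -3.59 in LPLC1).

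**Figure D4:**
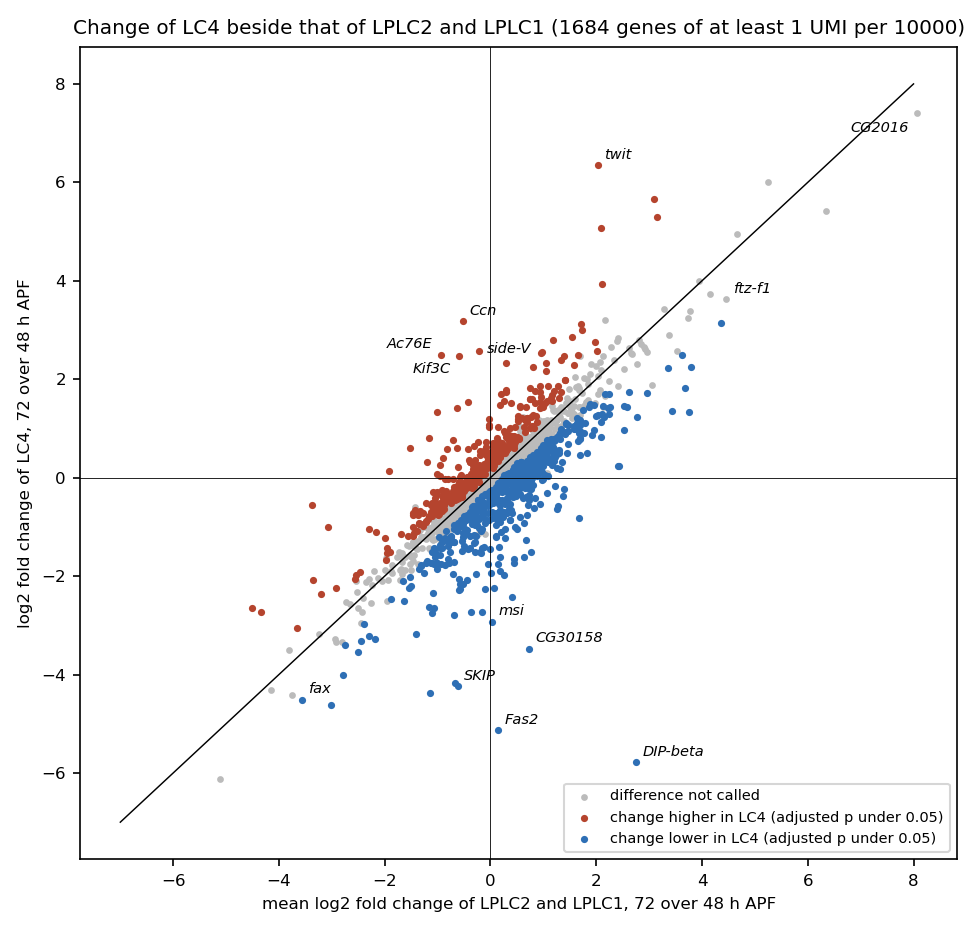
Log2 fold change of LC4 (vertical axis) against the mean log2 fold change of LPLC2 and LPLC1 (horizontal axis), 72 over 48 h APF, for 1684 tested genes with a mean of at least 1 TP10K in LC4 at 1 stage. Red and blue genes changed more upwards and more downwards in LC4 at an adjusted p under 0.05, and grey genes were not called. Most genes lie near the line of equal change. DIP-beta, with -5.79 in LC4, lies farthest below it, while CG2016 lies close to it.

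A small set of genes went in opposite directions, called in the fit of LC4 alone and, in the fit of 6 groups, in LPLC2, in LPLC1 and in the difference. Of the 6118 genes in both fits, 81 were lower in LC4 and higher in both LPLC2 and LPLC1, and 35 were higher in LC4 and lower in both others. The first set held, besides DIP-beta, the secreted semaphorin Sema2b, with log2 fold changes of -1.77 in LC4, 2.05 in LPLC2 and 1.80 in LPLC1. It also held beat-IIIb (-1.52, 0.87 and 0.64 in the same order of types) and the atypical cadherin kug (-1.74, 0.26 and 0.62). The tetraspanin Tsp42Ef (-1.48, 1.57 and 0.39) and the active zone gene Fife (-1.82, 0.85 and 1.26) were further members. So were the Fos-family factor kay (-0.66, 1.36 and 1.05) and the neuropeptide gene AstCC (-1.63, 1.74 and 1.22). The receptor nAChRalpha5 met the same rule (-0.22, 0.79 and 0.75), but its fall in LC4 was not called in the fit of 6 groups (adjusted p = 0.343). Besides Ac76E and Kif3C, the second set held the octopamine receptor Octalpha2R (0.60, -2.12 and -0.92). Free RNA of a lane enters all its cells. The LC4 factor kn had 0.0199 against 0.0360 TP10K in LPLC2 and 0.0325 against 0.0279 TP10K in LPLC1, which sets no limit for other genes. The part of free RNA in the levels of any gene was not tested.

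Energy genes changed differently in LC4 and the other types. Of 69 nuclear genes of oxidative phosphorylation tested over the 3 types, 66 were higher and 0 lower in LPLC2, and 65 were higher and 1 lower in LPLC1, with medians of 0.78 and 0.69 on the log2 scale. Over all 7014 genes, 5138 were called in LPLC2 and 4584 in LPLC1, in either direction. In LC4 28 of 67 rose, against 32.2% of all genes tested there, in a fit of LC4 alone with fewer crosses. In the test of the difference itself, LC4 changed more downwards for 63 of 69 genes and more upwards for 1, against 17.1% and 15.3% of all genes. Mitochondrial transcripts had a called downward difference for 13 of 16, and the vacuolar ATPase for 11 of 16. The last count was 5 without strain 799 at 72 h APF, 6 without strain 535 at 48 h APF and 3 against LPLC1 alone. Glycolysis genes had a called downward difference for 6 of 11, and for 3 against LPLC1 alone. Downward differences were not particular to energy genes. Of 29 neuropeptide receptor genes 15 had one and 2 an upward one, and of 20 heat shock and stress genes 11 had one and 3 an upward one. Ribosomal protein genes went the other way, with an upward difference for 58 of 84 and a downward one for 2, or for 1 with any cross but strain 399 at 48 h APF left out. Against LPLC1 alone 30 were called upwards. They fell by less in LC4 (median -0.25) than in LPLC2 (-0.60) and LPLC1 (-0.37). Syp also fell by less in LC4, by a difference of 1.09 ± 0.13. The fall of shakB was smaller in LC4, with a difference of 0.42 ± 0.14 (adjusted p = 0.0203), which was not called without strain 799 at 72 h APF (0.36, adjusted p = 0.0611), and log2 fold changes of -1.97 in LPLC2 and -1.82 in LPLC1.

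**Figure D5:**
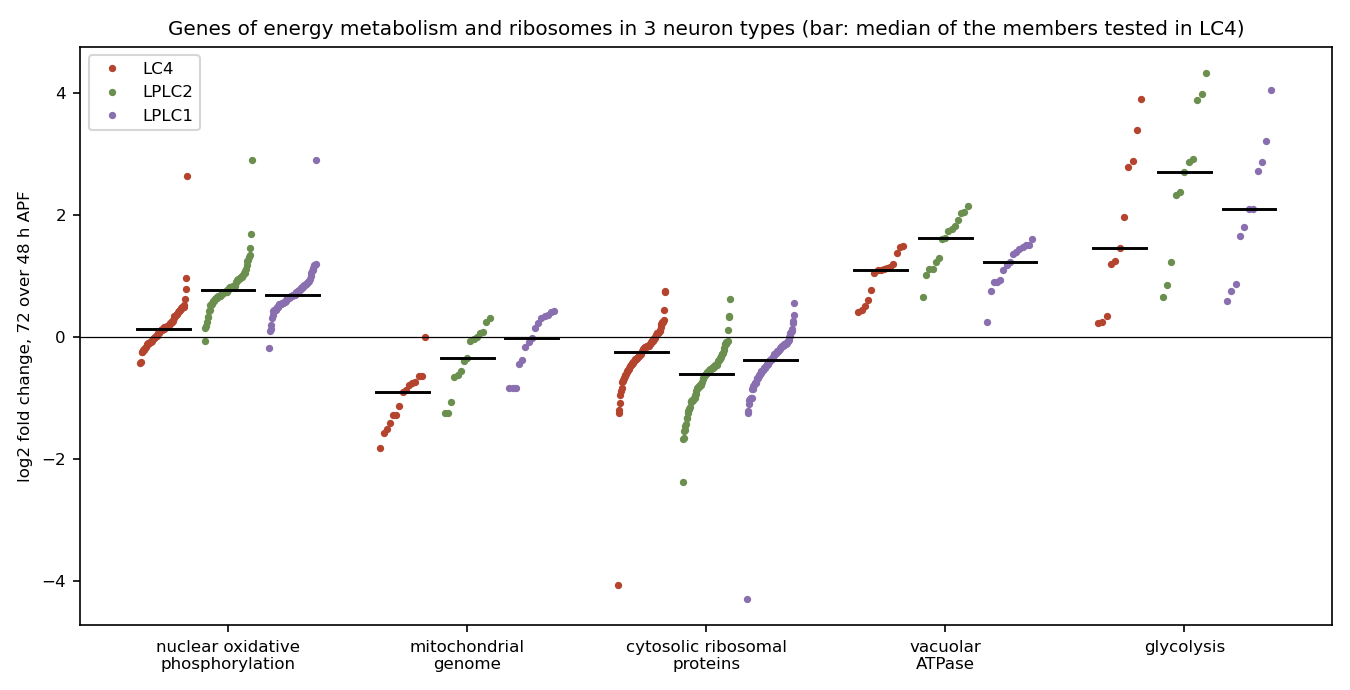
Log2 fold change (72 over 48 h APF, vertical axis) of each member tested in LC4 of 5 gene lists, in LC4 (red), LPLC2 (green) and LPLC1 (violet), sorted within a list, with the median as a black bar. The median of the nuclear oxidative phosphorylation genes is 0.14 in LC4, under that of LPLC2 and of LPLC1, while the ribosomal protein genes of LC4 lie nearest to 0.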

How the data were processed

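UMI counts per gene and cell were deposited by the authors as raw counts from Cell Ranger (FlyBase annotation, dm6), 1 table per stage. The authors assigned cells to strains by genotype with demuxlet, which also classifies doublets of different strains, and clustered and annotated them with Seurat 5.0.1. Doublets of 1 strain were not looked for. The deposited cell tables give the share of mitochondrial UMIs as a percent. The study states a filter of 10000 to 50000 UMIs and at most 10% mitochondrial UMIs, yet 322 of 2369 annotated cells at 72 h APF and 307 of 2595 at 48 h APF held fewer than 10000 UMIs, and all annotated cells were used. A strain label or collection group comes from the deposited cell tables.

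UMI counts were summed over the cells of a type, strain and stage. Sums were tested in R 4.3.3 with edgeR 4.0.16 (TMM normalization, filterByExpr, glmQLFit and glmQLFTest) with p-values adjusted by Benjamini-Hochberg over every gene in the fit. The standard error of a log2 fold change is its size divided by the square root of F. Changes were compared between types by a contrast in a fit of 6 groups. Values per cross were compared by exact two-sided permutation over 210 regroupings. Gene positions come from a later annotation of the same assembly. Crosses of 1 strain share a chromosome, and their deviations from the stage means correlated (r from 0.0987 to 0.151 over genes for the same strain, -0.105 to 0.0354 for others), so that strains pair the crosses, and the strain was tried as a block.

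Genes were named by rule: the 15 largest changes in each direction (adjusted p under 0.05, at least 1 TP10K, stages not overlapping), up to 3 called members and the highest member of each list, the largest differences between types, the identity factors and the genes of highest mean level at each stage. Direction opposite to the other types was not part of the rule, and the genes printed for it were picked after their values were seen. The text gives a selection of the genes that the rule named. Members, lists and rules were chosen with earlier results of these data known. Alternatives were DESeq2 1.42.0, limma 3.58.1, other normalization and filters, thinning of cells to 10000 UMIs, covariates, left-out crosses and other sets of cells or types. The counts at 96 h APF were not used here.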

Additional observations from a re-analysis of the deposited data

Results flagged for a closer look

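Sets of values in the crosses of 1 stage were checked for each named gene and for quantities per cross such as the number of cells. Of these 302 sets, 24 (7.95%) held a cross that lay far from the others by Dixon's criterion, where chance gives about 1 in 20. All 24 were sets of a named gene. At 72 h APF the cross of strain 399 lay above the other crosses in dpr13 (8.78 TP10K, next value 7.83), amon (2.05 TP10K, next value 1.65), mamo (3.35 TP10K, next value 3.02) and PyK (2.60 TP10K, next value 2.40). At 72 h APF the cross of strain 535 lay above the other crosses in twit (4.83 TP10K, next value 4.12) and mt:ATPase6 (4.92 TP10K, next value 4.10). At 72 h APF the cross of strain 799 lay above the other crosses in msi (0.475 TP10K, next value 0.368). At 72 h APF the cross of strain 799 lay below the other crosses in CG13054 (2.66 TP10K, next value 4.42). At 72 h APF the cross of strain 805 lay above the other crosses in RpLP0 (6.16 TP10K, next value 5.71). At 72 h APF the cross of strain 805 lay below the other crosses in Fife (0.0866 TP10K, next value 0.171) and betaTub56D (8.36 TP10K, next value 9.74). At 48 h APF the cross of strain 399 lay above the other crosses in CG10866 (0.584 TP10K, next value 0.249), salr (0.254 TP10K, next value 0.0869), Sox102F (0.228 TP10K, next value 0.107), dpr16 (1.09 TP10K, next value 0.737), Ca-alpha1T (0.914 TP10K, next value 0.387), nrv2 (0.330 TP10K, next value 0.204) and Pxn (1.95 TP10K, next value 1.56). At 48 h APF the cross of strain 535 lay above the other crosses in twit (0.153 TP10K, next value 0.0521). At 48 h APF the cross of strain 555 lay above the other crosses in CG2016 (0.739 TP10K, next value 0.228), Shab (10.9 TP10K, next value 9.89) and Imp (1.73 TP10K, next value 1.22). At 48 h APF the cross of strain 555 lay below the other crosses in ND-49 (0.512 TP10K, next value 0.834). At 48 h APF the cross of strain 799 lay above the other crosses in AstA-R2 (0.599 TP10K, next value 0.227). At 48 h APF the crosses of strains 399 and 555 held 14 and 12 cells, the fewest of all, and their part in these values was not tested.

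The change between the stages differed between LC4 and the mean of LPLC2 and LPLC1 for 28 named genes, by the test of the difference itself in edgeR (adjusted p under 0.05). On the log2 scale the change of LC4 was the lower one for DIP-beta (-8.51), Fas2 (-5.24), CG30158 (-4.18), Sema2b (-3.66), SKIP (-3.59), GILT1 (-3.48), luna (-3.20), AstCC (-3.08), msi (-2.93), Fife (-2.86), DIP-kappa (-2.79), Tsp42Ef (-2.43), beat-IIIb (-2.25), kug (-2.16), kay (-1.84), nAChRalpha5 (-0.97) and kn (-0.83). It was the higher one for twit (4.35), Ccn (3.72), Ac76E (3.45), Kif3C (3.09), Muc14A (3.01), Cad87A (2.85), side-V (2.81), CG13506 (2.59), Octalpha2R (2.14), Syp (1.09) and shakB (0.42). The levels of twit and kn in LPLC2 and LPLC1 did not pass 0.0360 TP10K. At such low levels the change in those types is poorly measured, and the part of free RNA in it was not tested. For twit, kn and shakB the call was lost against LPLC1 or LPLC2 alone or without 1 cross, and for the remaining 25 genes it was kept under every alternative that gave a value.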

How the results depend on the processing

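The counts of genes called in LC4 kept within 1.5 times of those given under every alternative but 1. With any 1 cross left out, 3710 to 4021 genes were called, of which 1794 to 1981 were higher and 1916 to 2055 lower at 72 h APF. The exception was the count of genes at least 2-fold higher, which was 1220 with no filter on low counts, against 733. Genes whose change was higher in LC4 than in LPLC2 and LPLC1 numbered 692 with cells thinned to 10000 UMIs, against 1073. Thinning lowered the UMIs and also left out cells with fewer than 10000 UMIs, and the part of each was not tested. The difference in the number of LC4 cells per cross lay between 52.8 and 115.2 cells without single crosses, with a p over 0.05 for 9 of the 10. With the strain as a block over the 4 shared strains, 3689 genes were called, against 3763 for these strains without the block, and among the genes named 3 calls differed between these fits: Lim1 was called only without the block (with it -1.28, adjusted p = 0.057), Con and Sox102F only with it (without it adjusted p = 0.0918 and 0.0571). Over all sums, the block gave 1173 genes whose change was higher and 1331 whose change was lower in LC4.

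For the change in LC4, 135 of 145 named genes kept their direction and their side of the threshold under every alternative that gave a value. The sign of mt:lrRNA, which was not called, turned: its log2 fold change was 0.0235 with DESeq2 size factors, 0.0231 in DESeq2's Wald test, 0.0911 with no low-count filter, 0.000126 with the collection group as a covariate, 0.0181 with the stated cell filter, 0.027 in the fit of 6 groups and 0.058 in the early crosses alone, and it ranged from -0.0466 to 0.0186 without single crosses. The cause was not tested. In the early crosses alone, chosen after seeing the data, the calls of Cad87A, Con, nAChRalpha7, Octalpha2R, nrv2 and Sox102F were lost. In the late crosses alone those of nAChRalpha5 and Sox102F were lost, and futsch was called. The gene futsch was also called with limma voom, with no low-count filter, with either covariate, without crosses of fewer than 30 cells and in the fit of 6 groups (adjusted p from 0.00643 to 0.0283), and Sox102F lost its call with no low-count filter. Counts over small lists moved too: with thinned cells 2 DIP genes, 5 identity factors and 2 nuclear oxidative phosphorylation genes were lower and 5 hormone-response genes and 2 neuropeptide receptor genes higher, 2 beat genes were higher in DESeq2's Wald test, and in the early crosses alone 17 nuclear oxidative phosphorylation and 3 ribosomal protein genes were higher. DIP genes with a higher level numbered 1 with the strain block and 2 in the late crosses alone. Size factors of DESeq2 moved the median of all genes by 0.0245 on the log2 scale. Stage and library cannot be told apart by any alternative, and at 48 h APF crosses of 12 and 14 cells limit what can be said of genes with few UMIs.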
